A study of Mus with 8 samples.

Results

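The genes described are 9 enzymes of glycolysis, Hk1, Hk2, Gpi1, Pfkl, Pfkp, Aldoa, Pgk1, Pkm and Ldha, together with the kinase gene Pdk1. These 10 genes were taken by name from the 32285 genes measured in blood progenitor cells of mice. RNA was counted with antibody tags in single cells (CITE-seq) as unique molecular identifiers (UMI), each marking 1 captured molecule. The cells were Lin-Kit+ (LK) or Lin-Sca1+Kit+ (LSK), from newborn mice (P0) or mice 14 days old (P14), and were Ifnar+/- or Ifnar-/-. The 8 combinations had 1 library each, so no difference below has a replicate check and none carries a p-value. GEO's labels leave out the organ, the number of animals per library, and which of the Ifnar genes was targeted and how. No group was Ifnar+/+, so Ifnar+/- is the reference throughout.

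Cells were kept with at least 7500 gene UMI and at most 10% mitochondrial UMI, which left 2411 to 5891 cells a library and 35549 in all. The kept cells held 100486590 to 302507736 gene UMI per library, and the median cell held 25597 to 46231, deepest in newborn LK Ifnar+/- and shallowest in the P14 LSK libraries. Ifnar1 was at 14.7 to 36.9 CPM (UMI of a gene scaled to the same total of gene UMI in each library) and Ifnar2 at 64.9 to 98.7 CPM, with UMI in Ifnar-/- as in Ifnar+/- libraries. A 3′ count does not check a deletion elsewhere in the gene. LSK libraries held 664 to 1176 CPM of the 10 stem cell markers read, against 156 to 274 in LK. Of 8 hepatocyte markers, Alb, Ttr, Serpina1a and Fgb were at 0 in all 4 P14 libraries and none was at 0 at P0. The summed level of that list was 33.0 to 47.5 CPM at P0 and 32.8 to 51.1 CPM at P14, and its part in the age difference was not tested. The newborn LSK Ifnar-/- library stood apart. There 13.4% of genes were at least 1.5-fold higher than in newborn LSK Ifnar+/-, against 0.649% to 0.821% in the other 3 genotype pairs, and results that rest on it are also given from the other pairs.

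Glycolysis turns glucose into pyruvate in the cytosol. Hexokinases (Hk1, Hk2) trap glucose in the cell, Gpi1 isomerises the product, phosphofructokinases (Pfkl, Pfkp) make the committed step, Aldoa splits the sugar, and Pgk1 and Pkm each yield ATP. Ldha reduces pyruvate to lactate. Pdk1 phosphorylates and so restrains pyruvate dehydrogenase, the gate from pyruvate to the citric acid cycle, and is with Ldha and Pgk1 among the known targets of the oxygen-regulated factor HIF-1. Blood stem cells are often described as glycolytic, with Pdk genes as a brake on mitochondrial use of pyruvate.

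By role, the hexokinase genes are Hk1 (chr10:62268855-62379920) and Hk2 (chr6:82725025-82774454), and Gpi1 is at chr7:34201327-34230336. The phosphofructokinase genes are Pfkl (chr10:77986947-78009807) and Pfkp (chr13:6579874-6649060). Aldoa lies at chr7:126795234-126800994, Pgk1 at chrX:106187100-106203699 and Pkm at chr9:59656576-59679372. Ldha lies at chr7:46842274-46855627 and Pdk1 at chr2:71873215-71903858. Positions are whole genes in GRCm38.p6 (mm10), from RefSeq.

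Levels are given as CPM, with the Ifnar+/- library first and Ifnar-/- second in each pair of values. Aldoa was at 446 and 539.8 CPM in newborn LK and at 368 and 388 in newborn LSK. At P14 it was at 291 and 303 CPM in LK and at 231 and 244 in LSK. Every P14 library lay below every P0 library, and within each age both LK libraries lay above both LSK libraries. The Ldha level was 878 and 983 CPM in newborn LK, 578 and 498 in newborn LSK, 561 and 635 in P14 LK, with 374 and 371 in LSK of that age. Newborn LK was highest and P14 LSK lowest, while the ranges of the ages overlapped because P14 LK reached the level of newborn LSK. Pgk1 was at 289 and 343 CPM in newborn LK, 321 and 325 in newborn LSK, 235 and 236 in P14 LK, with 246 and 259.7 in LSK of that age. The ages did not overlap for Pgk1, and the fractions did.

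Pkm was high in LSK cells, at 534 and 554 CPM at P0 and 384 and 401 at P14. In LK it was at 283 and 334 CPM at P0 and 252 and 237 at P14. All 4 LSK libraries lay above all 4 LK libraries, and within each fraction both P14 libraries lay below both P0 libraries. Gpi1 was the steadiest of the abundant members, at 379 and 425 CPM in newborn LK, 398 and 409 in newborn LSK, 369 and 355 in P14 LK, with 317 and 321 in LSK of that age. Its P14 libraries were all below its P0 libraries by a small margin.

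Of the genes for the first and the committed steps, Hk1 alone separated the fractions. It was at 155 and 148 CPM in newborn LK and 92.6 and 106 in P14 LK, against 58.6 and 72.1 in newborn LSK and 57.5 and 61.3 in P14 LSK. Its LK libraries were all above its LSK libraries. Hk2, the inducible hexokinase, was at 28.6 and 23.3 CPM in newborn LK, 41.6 and 59.5 in newborn LSK, 35.2 and 24.4 in P14 LK, with 32.9 and 36.3 in LSK of that age. Its highest library was newborn LSK Ifnar-/-, and neither the ages nor the fractions were separate. Pfkl was at 78.1 and 85.0 CPM in newborn LK, 91.1 and 118 in newborn LSK, 54.7 and 56.0 in P14 LK, with 59.97 and 64.1 in LSK of that age. Ages did not overlap for Pfkl, and newborn LSK Ifnar-/- was again highest. Pfkp varied least in absolute terms, from 20.6 CPM (95% counting interval 19.8 to 21.4) in P14 LSK Ifnar-/- to 25.8 (25.2 to 26.5) in newborn LK Ifnar-/-.

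Pdk1 was at 55.8 and 54.4 CPM in newborn LK, 52.8 and 63.4 in newborn LSK and 54.1 and 56.2 in P14 LSK. The 2 P14 LK libraries stood below the other 6, at 40.5 and 39.3 CPM. The 10 genes together made up 2614 and 2962 CPM in newborn LK, 2463 and 2514 in newborn LSK, 1955 and 2015 in P14 LK, with 1777 and 1834 in LSK of that age. The order ran by age first, with all P0 sums above all P14 sums, and by fraction within each age. Counting intervals are exact Poisson intervals and cover counting error only.

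**Figure D1:**
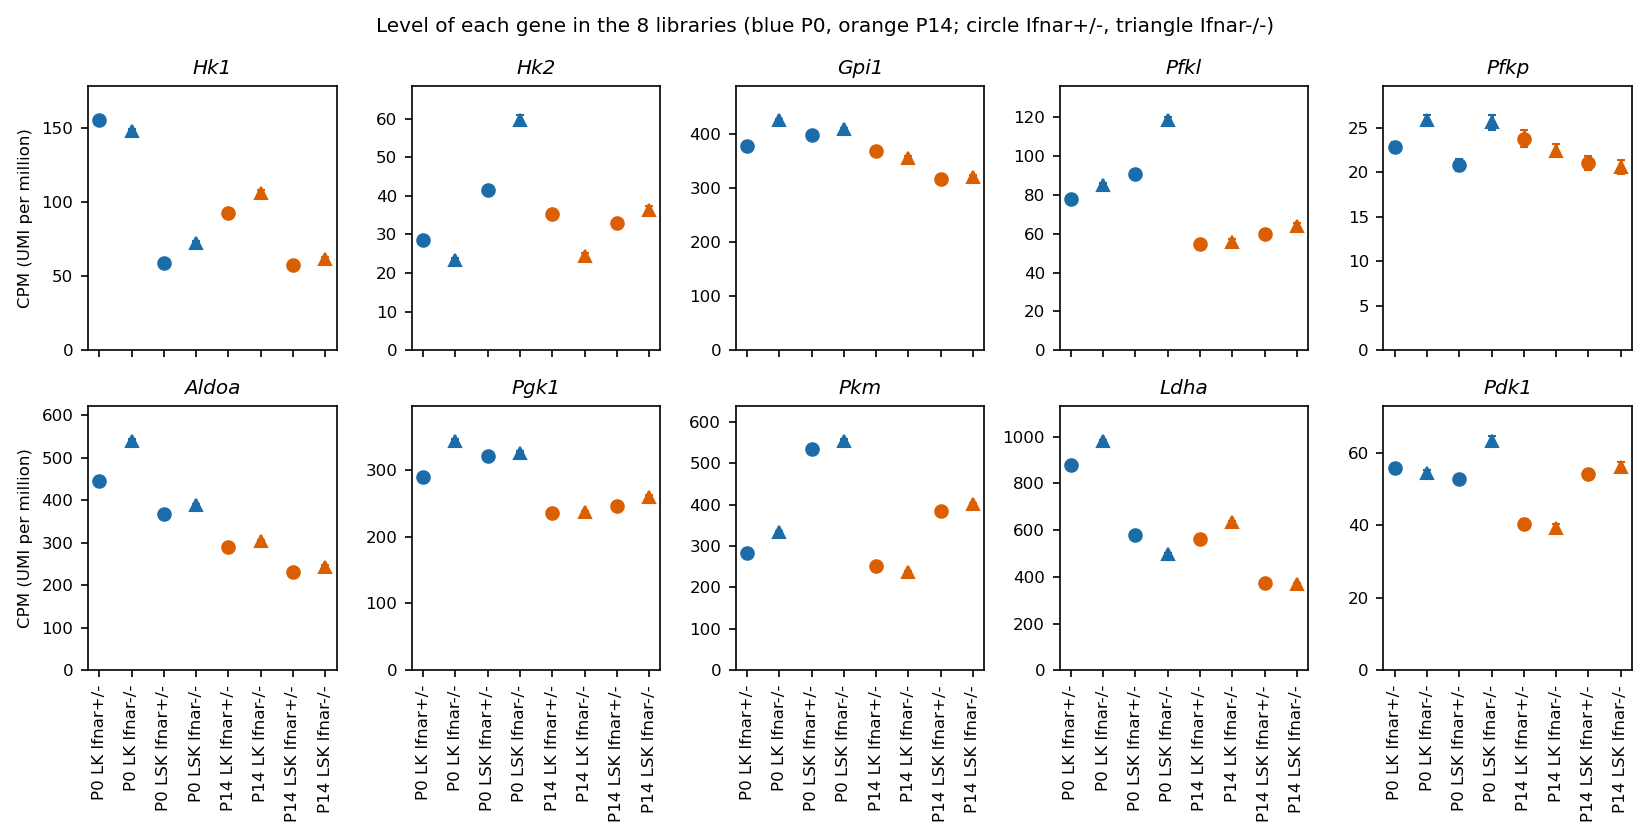
CPM (y axis, from 0) of the 10 genes in the 8 libraries (x axis), with 95% Poisson intervals that are mostly smaller than the symbols. For Gpi1, Pfkl, Aldoa and Pgk1 the 4 P14 libraries (orange) lie below the 4 P0 libraries (blue), while Hk1 and Pkm separate by fraction.

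Most of the 10 genes, but not all, were lower at P14 than at P0. The comparison was made in 4 pairs that share fraction and genotype. The 10 genes were chosen with earlier results of these data known, so shares of all genes are given as description and no enrichment is read. Of the 10 genes, 7 (Hk1, Gpi1, Pfkl, Aldoa, Pgk1, Pkm and Ldha) were lower at P14 in all 4 pairs, as were 22.7% of the 13150 genes tested. The 4 P14 libraries lay wholly below the 4 P0 libraries for 4 of the 10 (Gpi1, Pfkl, Aldoa and Pgk1), and for 6.03% of genes tested. Aldoa was the 1 gene of the 10 that passed 1.5-fold lower in each pair, against 2.58% of genes. None was at least 1.5-fold higher in all 4 pairs, against 3.24% of genes. The libraries of P14 lay wholly above those of P0 for none of the 10, against 8.08% of genes, and none was higher in all 4 pairs, against 33.3%. The count of 1 moved with the threshold: it was 0 with 2-fold and 3 (Pfkl, Aldoa and Ldha) with a looser one. It was 2 without the LK Ifnar+/- pair, which adds Pfkl, and 2 without the LSK Ifnar-/- pair, which adds Ldha.

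The median log2 ratio of P14 over P0 for the 10 genes was -0.38 in LK Ifnar+/-, -0.49 in LK Ifnar-/-, -0.36 in LSK Ifnar+/- and -0.39 in LSK Ifnar-/-. The median of all genes tested was 0.13, 0.14, 0.07 and -0.06 in the same pairs. Aldoa had the largest mean of the 4 log2 ratios, -0.70, with pairs from -0.83 to -0.62. Pfkl followed at -0.65, with pairs from -0.89 in LSK Ifnar-/- to -0.51 in LK Ifnar+/-. Ldha had -0.65, -0.63 and -0.63 in the first 3 pairs and -0.43 in LSK Ifnar-/-. The mean log2 ratio was -0.40 for Pkm, -0.39 for Pgk1 and -0.24 for Gpi1. In whole libraries Hk1 was lower mainly in LK. Its log2 ratios were -0.74 and -0.48 there, against -0.03 (95% counting interval -0.07 to 0.01) and -0.24 in LSK.

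Hk2 and Pfkp did not go one way. The Hk2 ratio was 0.30 and 0.07 in LK and -0.34 and -0.71 in LSK. The Pfkp ratio was 0.06 (interval -0.01 to 0.12), -0.20, 0.01 (interval -0.06 to 0.09) and -0.32. Pdk1 was lower at P14 in LK, with log2 ratios of -0.46 and -0.47, or 1.38-fold in both genotypes. In LSK its ratio was 0.03 (interval -0.01 to 0.08) in Ifnar+/- and -0.17 in Ifnar-/-. The 2 LSK ratios lay above both LK ratios, a difference between the fractions that was not tested.

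**Figure D2:**
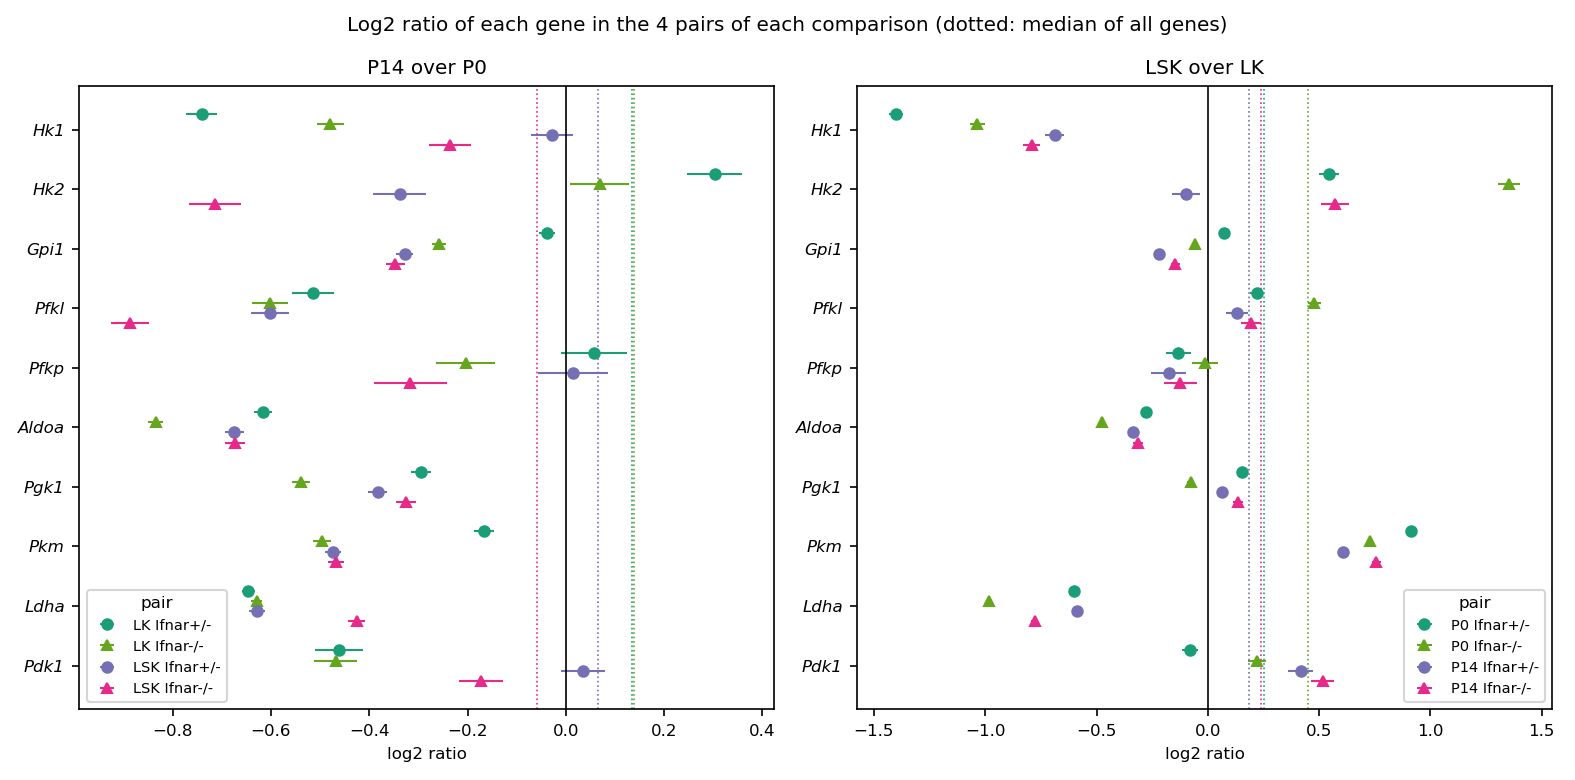
Log2 ratio (x axis) of each gene (y axis) in the 4 pairs of the age comparison, left, and of the fraction comparison, right, with 95% counting intervals; dotted lines give the median of all genes in each pair. On the left, 7 of the 10 genes lie below 0 in all 4 pairs, and on the right Hk1 and Ldha lie far below 0 and Pkm above it.

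Sums over a library mix cell types, so a change in the makeup of cells and a change in the level per cell cannot be told apart from them. The age comparison was therefore read again within cell classes, which were rebuilt by clustering and named from markers. In erythroid-like cells of LK all 10 genes were lower at P14 in both genotypes, with medians of -0.61 and -0.62 against 0.13 and 0.12 for all genes. Pkm was the extreme there, at 121 and 162 CPM at P0 and 40.1 and 48.5 at P14, log2 ratios of -1.59 and -1.74. Pdk1 was at 62.3 and 62.7 CPM in P0 erythroid-like cells and at 36.5 and 35.6 at P14. P0 erythroid-like cells sat mostly in clusters 6, 11 and 14 and those of P14 in clusters 22 and 23. The age ratios of erythroid-like cells thus largely compare different clusters.

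In the other classes the medians for the 10 genes were also below 0. They were -0.45, -0.55 and -0.52 in the 3 pairs of megakaryocyte-like cells, where Aldoa reached -1.18, and -0.64 and -0.74 in eosinophil, basophil or mast-like cells. In monocyte or dendritic progenitor-like cells they were -0.30 and -0.32, and Hk2 went the other way, at 0.71 and 0.37. In neutrophil progenitor-like cells they were -0.21 and -0.25, with Aldoa at -0.73 and -0.88 and Hk1 above 0, at 0.09 and 0.34. With cell classes weighted equally the mean log2 ratio of Hk1 over the 4 pairs was -0.06, against -0.37 in whole libraries. Hk1 was lower at P14 in erythroid-like and megakaryocyte-like LK cells, but not in LK cells of clusters left unnamed. There Hk1 was at 55.4 and 45.7 CPM at P0 and at 60.9 and 58.8 at P14. Megakaryocyte-like cells were mostly in cluster 4 at P0 and in cluster 7 at P14. Neutrophil progenitor-like cells were in cluster 12 at P0 and mostly in cluster 25 at P14. Cluster 25 scored higher for monocyte or dendritic progenitor (1.16 against 1.08). The age ratios of these 2 classes thus largely compare different clusters.

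HSC-like cells (stem-cell-like, by markers) gave medians of -0.48 in LK Ifnar-/-, -0.66 in LSK Ifnar+/- and -0.69 in LSK Ifnar-/-. Within them Pfkl was at 124 to 139 CPM at P0 and 52.6 to 71.4 at P14, Pkm at 545 to 606 and 293 to 360.1, and Pgk1 at 286 to 309 and 151 to 174. The ages did not overlap for these 3 genes. Hk1, in contrast, was at 60.1 to 69.3 CPM at P0 and at 73.7 to 79.2 at P14. Pdk1 in HSC-like cells was at 58.1 to 74.9 CPM at P0 and at 60.6 to 72.7 at P14, so its ranges overlapped. P0 HSC-like cells came from cluster 1, with 94 cells in LSK Ifnar+/- and 1748 in LSK Ifnar-/-, and P14 HSC-like cells from cluster 8. The age ratios of HSC-like cells thus also compare different clusters. Cluster 10, with 1475 newborn LSK Ifnar-/- cells, met the naming thresholds for HSC but stayed unnamed and is left out here.

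Because the clusters split by age and by interferon genes, stem-like cells were also taken by a gate on transcripts: at least 1 UMI of both Procr and Mecom after thinning each cell to 7500 UMI. The gate was chosen with the data in view and held 77 to 865 cells a library. Medians for the 10 genes were -0.25 and -0.36 in LK and -0.42 and -0.41 in LSK. Ldha was at 415 to 454 CPM in gated cells at P0 and at 261 to 317 at P14, and Pfkl at 95.1 to 120.3 and 52.4 to 70.1. Pdk1 was at 59.0 to 68.6 CPM and 56.3 to 69.5 CPM, with log2 ratios of -0.05, -0.28, 0.13 and 0.04. In LK cells with Elane and Mpo the medians were -0.29 and -0.26, with Gpi1 ratios of 0.06 and 0.00. In LK cells with Klf1 and Car1 they were -0.63 and -0.64, with Pkm ratios of -2.00 and -2.16. In cells with Flt3 and either Dntt or Il7r they were -0.16 and -0.49 in LK and -0.20 in LSK Ifnar+/-. In that LSK pair Hk1 (0.22), Hk2 (0.01), Pfkp (0.63) and Pdk1 (0.21) were above 0. None of the 10 was 1.5-fold lower in all 4 pairs in the Procr and Mecom gate, against 1.21% of genes. Aldoa had ratios of -0.51 to -0.48 there, and Pfkl -0.88 to -0.56, missing the threshold in the LSK Ifnar+/- pair alone.

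**Figure D3:**
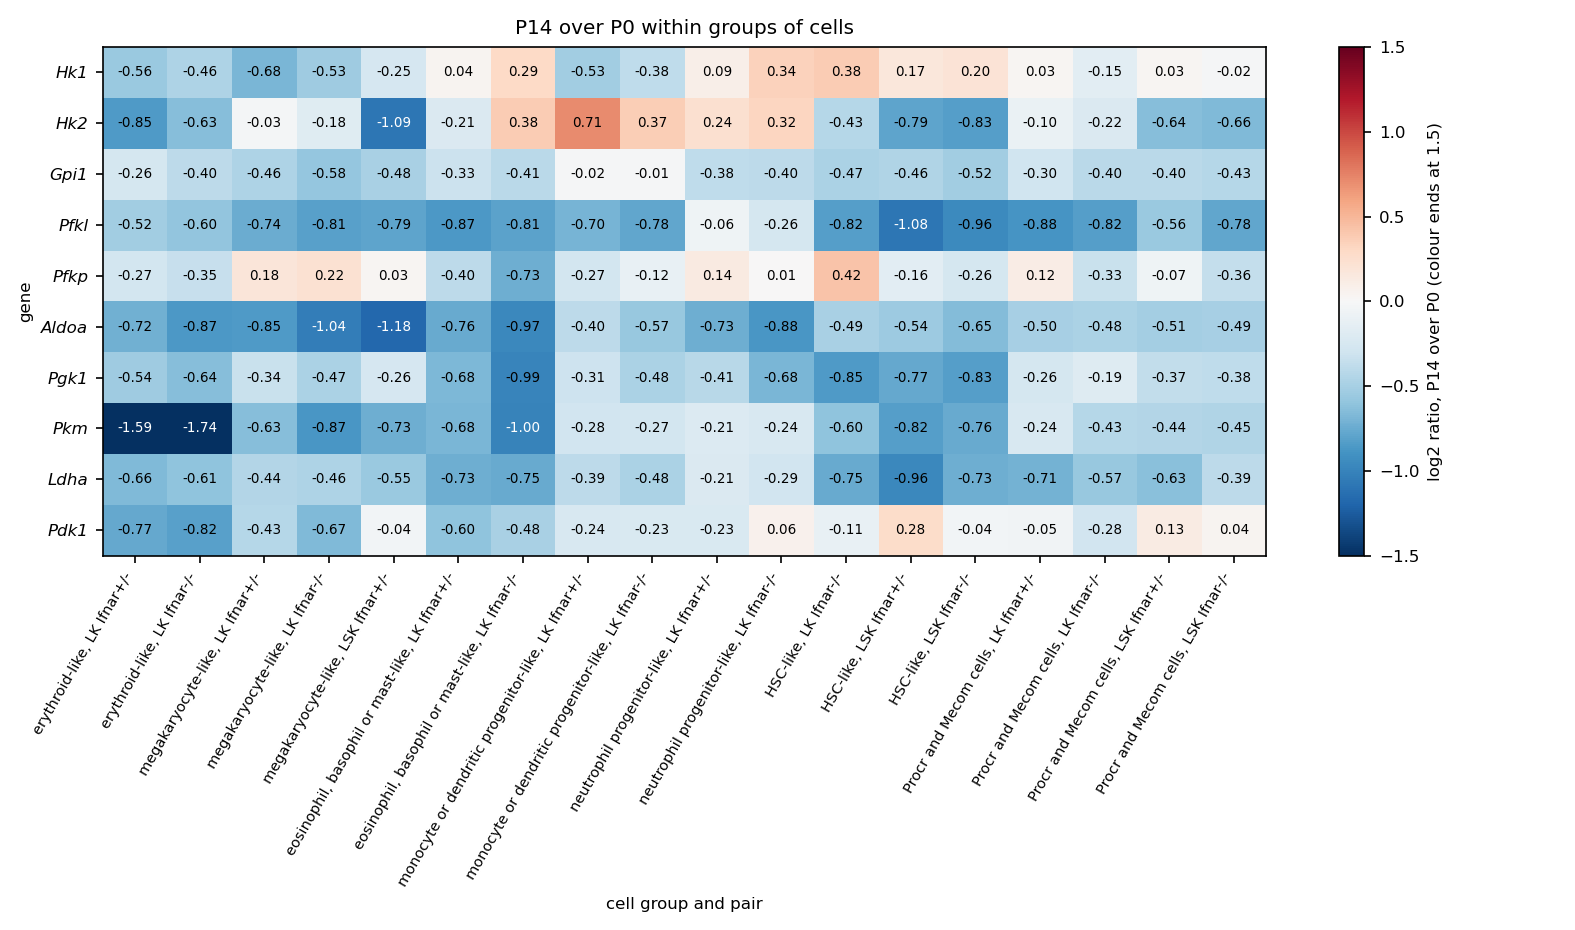
Log2 ratio of P14 over P0 (colour and printed value) for each gene (rows) within cell classes and the Procr and Mecom gate (columns, 1 per pair with enough cells). Gpi1, Pfkl, Aldoa, Pgk1, Pkm and Ldha are below 0 in the columns shown, with Pkm lowest in erythroid-like cells at -1.59 and -1.74, while Hk2 and Hk1 take both signs.

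Measures of cycling gave different orders. Cells with at least 3 UMI of 20 G2M genes after thinning were 82.8% and 84.1% of newborn LK, 73.5% and 73.7% of P14 LK, 67.3% and 61.2% of newborn LSK and 57.0% and 56.3% of P14 LSK. The summed levels of the same 20 genes did not follow that share: their median P14 over P0 log2 ratio was 0.08 and 0.00 in LK and -0.07 and -0.18 in LSK, with 5 lower in all 4 pairs, near the 22.7% of all genes, and 3 higher, under the 33.3% of all genes. For LSK over LK 11 of the 20 were higher in all 4 pairs, near the 58.3% of all genes, while the share of cells was lower in LSK, so no order of cycling is read from either. Among cells without a G2M UMI the mean-of-pairs median for the 10 genes was -0.50, and among those with at least 3 it was -0.36, against -0.38 in all cells. In cells without a G2M UMI the 4 ratios ran from -0.93 to -0.47 for Aldoa, which there missed 1.5-fold in both Ifnar+/- pairs, and from -0.99 to -0.60 for Pfkl, which passed it in each pair, as did 1.18% of genes. Pgk1 is X-linked, and its 4 ratios ran from -0.39 to -0.19 in cells with male transcripts and from -0.60 to -0.32 in those with female transcripts.

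The rest of the pathway was read from lists of genes, which were also chosen with earlier results of these data known. Of the other 11 glycolysis enzymes tested, Aldoc, Eno1 and Pklr passed 1.5-fold lower in each pair (2.58% of all genes) and Hk3 passed it higher (3.24%), with a median log2 ratio of -0.34. Eno1, the enolase, was at 290 and 315 CPM in newborn LK and 156 and 142 in P14 LK, and at 217 and 268 in newborn LSK and 130.3 and 143 in P14 LSK. It has a close copy, so its count is uncertain. Pklr, the pyruvate kinase of red cells, was at 31.8 and 30.3 CPM in newborn LK and 10.9 and 15.5 in P14 LK, and under 4 CPM in all LSK libraries. Hk3, a myeloid hexokinase, was at 4.94 and 4.97 CPM in newborn LK and 17.4 and 10.9 in P14 LK.

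Of 13 genes for glycolysis control and transport, 2 were 1.5-fold lower at P14 in all 4 pairs and none was higher, against 2.58% and 3.24% of all genes. Without a threshold 4 were lower and 5 higher in all 4 pairs, not far from the shares of all genes (22.7% and 33.3%), and the pair medians were 0.10 and 0.02 in LK and -0.11 and -0.22 in LSK. Past 1.5-fold were Slc2a1, the glucose transporter GLUT1, and Slc16a3, a lactate exporter. Slc2a1 was at 13.4 and 15.5 CPM in newborn LK, 25.8 and 37.7 in newborn LSK, 7.12 and 6.67 in P14 LK, with 11.5 and 12.5 in LSK of that age. All P14 libraries were below all P0 libraries. Slc16a3 was at 39.0 and 55.1 CPM in newborn LK and 4.78 and 5.15 in P14 LK, and at 8.68 and 13.01 in newborn LSK and 3.33 and 3.48 in P14 LSK. Pfkfb3, which makes the activator of phosphofructokinase, went the other way, from 6.08 to 6.88 CPM at P0 to 9.59 to 11.2 at P14.

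Among 9 hypoxia pathway genes tested, Egln3 and Hif3a passed 1.5-fold lower in each pair (2.58% of all genes) and none passed it higher (3.24%), with a median of -0.26. Egln3, an oxygen-sensing hydroxylase that HIF itself induces, was at 34.0 to 61.4 CPM at P0 and 9.61 to 14.5 at P14. Hif1a, the oxygen-regulated subunit of HIF-1, was lower by less: 35.7 and 31.6 CPM in newborn LK, 47.1 and 51.5 in newborn LSK, 30.8 and 27.4 in P14 LK, with 38.9 and 40.9 in LSK of that age. Arnt, its partner, had log2 ratios of 0.26, 0.13, 0.00 and -0.36, and Vhl, which marks HIF for removal, had 0.13, 0.20, 0.04 and -0.10. Epas1, the HIF-2 alpha gene, was at 0.403 CPM at most. These are RNA levels, and HIF-1 alpha is controlled mainly as a protein.

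Of 26 other hypoxia targets tested, 15 were lower at P14 in all 4 pairs and 1 was higher, against 22.7% and 33.3% of all genes, with a median of -0.31. At least 1.5-fold lower in all 4 were P4ha2, Ddit4, Ndufa4l2 and Stc2, against 2.58% of all genes, and none was higher by that much, against 3.24%. Ddit4, a brake on mTOR, was at 13.8 and 16.4 CPM in newborn LK, 23.0 and 29.9 in newborn LSK, 4.68 and 6.96 in P14 LK, with 6.97 and 12.9 in LSK of that age. Ndufa4l2, which damps the respiratory chain in hypoxia, was at 70.8 and 122 CPM in newborn LK and 4.72 and 12.7 in newborn LSK, and had 6, 7, 0 and 1 UMI in the 4 P14 libraries. A count of 0 in P14 LSK Ifnar+/- allows up to 0.0229 CPM (3 UMI). Ndufa4l2 was among the leading genes of erythroid-like clusters 6, 11 and 14. In newborn LK it was at 119 and 208 CPM in the Klf1 and Car1 gate and at 3.33 and 3.21 in the Procr and Mecom gate. The Procr and Mecom gate of newborn LSK held 1 and 4 UMI of it. Unnamed clusters, 92.6% of newborn LSK Ifnar+/- cells, held 7 UMI (0.0435 CPM).

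Of 11 genes of the pyruvate dehydrogenase switch tested, none was 1.5-fold apart in all 4 pairs in either direction, which with 2.58% of all genes lower and 3.24% higher says nothing particular to them. Their median was 0.00. Pdk3 was at 35.9 to 48.3 CPM at P0 and 39.1 to 41.8 at P14, and Pdk2 at 3.40 to 10.4 and 4.64 to 8.10. Pdk4, often named beside Pdk2 in stem cells, had 1 to 23 UMI a library, at most 0.176 CPM. Pdp1, the phosphatase that releases the block, had log2 ratios of 0.71, 0.79, 0.54 and 0.43. Downstream of the gate, 12 of 16 citric acid cycle genes and 33 of 70 respiratory chain and ATP synthase genes were lower at P14 in all 4 pairs, against 22.7% of all genes. None of either list was 1.5-fold lower or higher in all 4 pairs, against 2.58% and 3.24% of all genes, and their medians were -0.18 and -0.12.

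Between LSK and LK the 10 genes did not go one way. Pkm was at least 1.5-fold higher in LSK in all 4 pairs, as were 20.5% of 13326 genes tested. Hk1 and Ldha were at least 1.5-fold lower in all 4, against 4.43% of genes. LSK libraries lay wholly above LK for Pkm, against 40.2% of genes, and wholly below for Hk1, against 14.3%. Pfkl and Pkm were above 0 in all 4 pairs, against 58.3% of genes, and Hk1, Pfkp, Aldoa and Ldha below 0, against 22.4%. The median log2 ratio of LSK over LK for the 10 genes was 0.00, -0.03, -0.14 and 0.01 in the P0 pairs (Ifnar+/-, then Ifnar-/-) and the P14 pairs in that order, and the median of all genes was 0.25, 0.45, 0.19 and 0.24. Hk1 had log2 ratios of -1.40, -1.04, -0.69 and -0.79, so the P0 gap was the wider in both genotypes. Ldha had -0.60, -0.98, -0.59 and -0.78, with the smallest ratio, 1.501-fold in P14 Ifnar+/-, at the threshold. Pkm had 0.91, 0.73, 0.61 and 0.76.

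Pdk1 in LSK against LK had log2 ratios of -0.08 and 0.22 at P0 and 0.42 and 0.52 at P14. That is 1.33-fold and 1.43-fold higher in LSK at P14, in the libraries where LK was low. Pfkl was higher in LSK in all 4 pairs, by 0.13 to 0.48, and Aldoa lower, by -0.48 to -0.28. Scaling decides some of these directions. TMM scaling, which centres the bulk of genes, moved the all-gene median for LSK over LK by -0.27 and median-of-ratios scaling moved it by -0.32. Under both Pfkl and Pgk1 took the opposite sign, and under the second Pdk1 did, since their ratios were smaller than the shift. Pgk1 also changed sign with cells weighted equally. Pkm no longer passed 1.5-fold in all 4 pairs under either.

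The fractions held different cells. Erythroid-like cells were 35.0% and 38.7% of newborn LK and 27.8% and 34.4% of P14 LK, against 1.37% and 1.90% of newborn LSK. The summed CPM of 8 erythroid markers went the other way at P0, at 638 and 698 in LK against 861 and 1845 in LSK. At P14 it was 797 and 924 in LK against 435 and 434 in LSK. Hk1 in erythroid-like cells had a mean of 208 CPM over 6 libraries (157 to 254), against 28.4 in B cell-like cells. Ldha in LK was at 1036 and 1132 CPM in erythroid-like and 1005 and 1081 in megakaryocyte-like cells at P0, and at 656 and 742 against 740 and 786 at P14, so neither class was the higher at both ages. Classes draw on different libraries (B cell-like cells on 3 libraries of P14, HSC-like cells on both ages), so their means are not ranked. Within each library that held at least 50 erythroid-like cells, Hk1 was higher and Pkm lower in them than in the other classes. Pkm was in erythroid-like cells at 101 CPM (40.1 to 162), and at 440.3 in HSC-like and 484 in monocyte or dendritic progenitor-like cells. These class levels describe the cells clustered and carry no test.

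With cell classes weighted equally none of the 10 genes was 1.5-fold higher or lower in LSK in all 4 pairs. Few genes were: 1.23% of all genes were higher and 0.48% lower, so the count of 0 says nothing particular to these 10. The mean log2 ratio was then -0.07 for Hk1, -0.11 for Ldha and 0.14 for Pkm, against -0.98, -0.74 and 0.75 in whole libraries. Inside the Procr and Mecom gate the medians for LSK over LK were 0.00, 0.01, -0.03 and 0.02, and Ldha had ratios from -0.13 to 0.07 and Pkm from -0.04 to 0.15. Within erythroid-like cells at P0 the medians were 0.00 and 0.07.

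**Figure D4:**
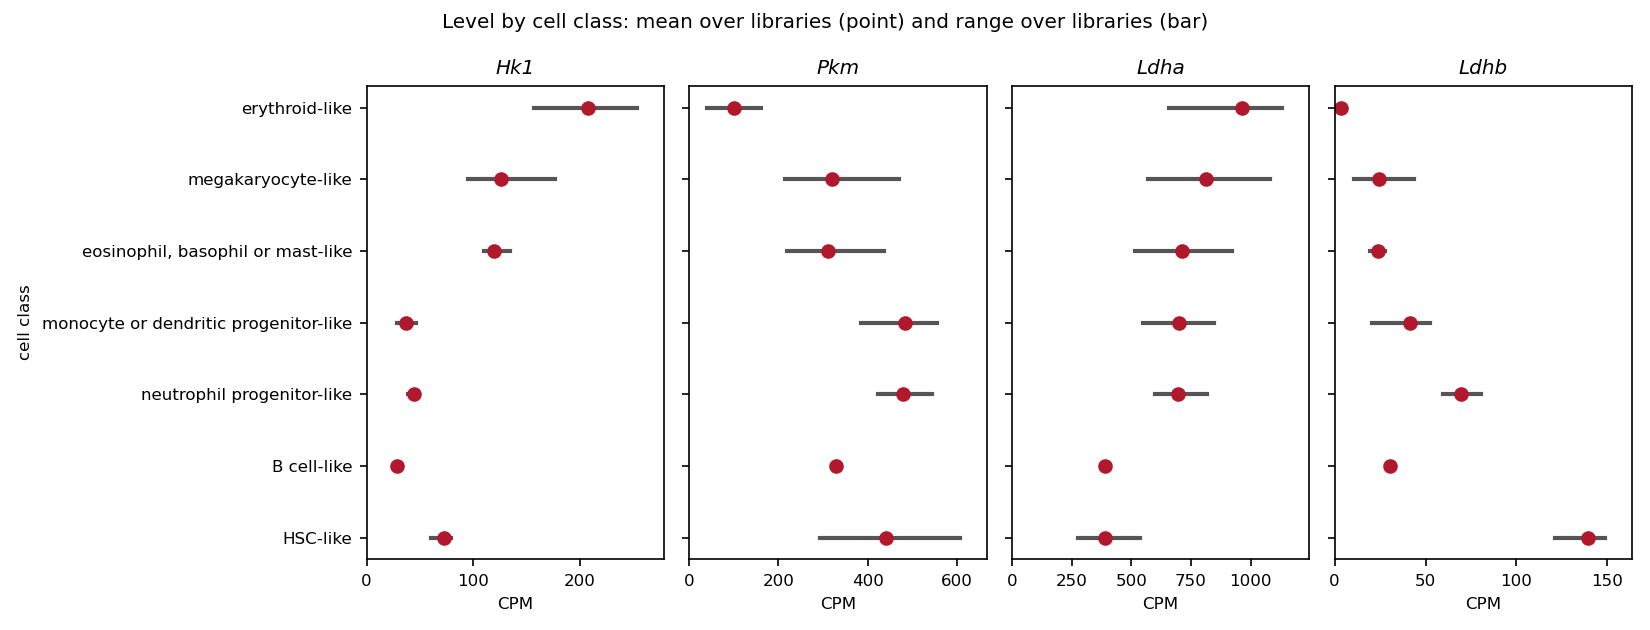
CPM (x axes, from 0) of Hk1, Pkm, Ldha and Ldhb by cell class (y axis): points are means over the libraries with at least 50 cells of a class and bars run from the lowest to the highest library. Classes draw on different libraries, so their means are not ranked. Within each library with at least 50 erythroid-like cells, Hk1 was higher and Pkm lower in them than in the other classes. For Ldha the bars of erythroid-like and megakaryocyte-like cells overlap.

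In whole libraries the Hk2 and Ldhb shares went with the fraction. Counts from the 3′ end do not scale with transcript length but capture may differ between genes, so shares are compared across libraries only. Hk2 was 15.2% and 13.2% of hexokinase UMI (Hk1, Hk2 and Hk3) in newborn LK, 24.2% and 17.3% in P14 LK, 41.1% and 44.8% in newborn LSK and 35.5% and 36.3% in P14 LSK. All LSK libraries were above all LK libraries. Ldhb, whose product favours lactate use, was 2.71% and 2.52% of Ldha and Ldhb UMI in newborn LK, 5.73% and 4.81% in P14 LK, 11.7% and 18.5% in newborn LSK and 16.2% and 18.3% in P14 LSK. Its level was 24.4 to 34.1 CPM in LK and 72.2 to 113 in LSK. Inside the Procr and Mecom gate Ldhb was at 114 to 133 CPM in LK and 124 to 147 in LSK, so the fractions overlapped. Hk2 was at 30.3 to 52.2 CPM in gated LK and 37.3 to 66.6 in gated LSK, and overlapped too. Shares were not computed in the gate. Mean Ldhb was 3.64 CPM in erythroid-like and 139 in HSC-like cells, over different sets of libraries and so not ranked.

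The phosphofructokinase share went with age and with fraction. Pfkl was 64.4% and 65.7% of Pfkl, Pfkm and Pfkp UMI in newborn LK and 71.5% and 72.5% in newborn LSK, against 58.1% and 58.6% in P14 LK, with 61.6% and 63.2% in LSK of that age. All P14 libraries lay below all P0 libraries, and within each age both LSK libraries lay above both LK libraries. Pdk1 was 57.7% and 58.0% of Pdk1 to Pdk4 UMI in newborn LK, 52.5% and 51.9% in newborn LSK and 53.2% and 52.9% in P14 LSK. In P14 LK it was 47.6% and 47.1%, the lowest of the 8.

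**Figure D5:**
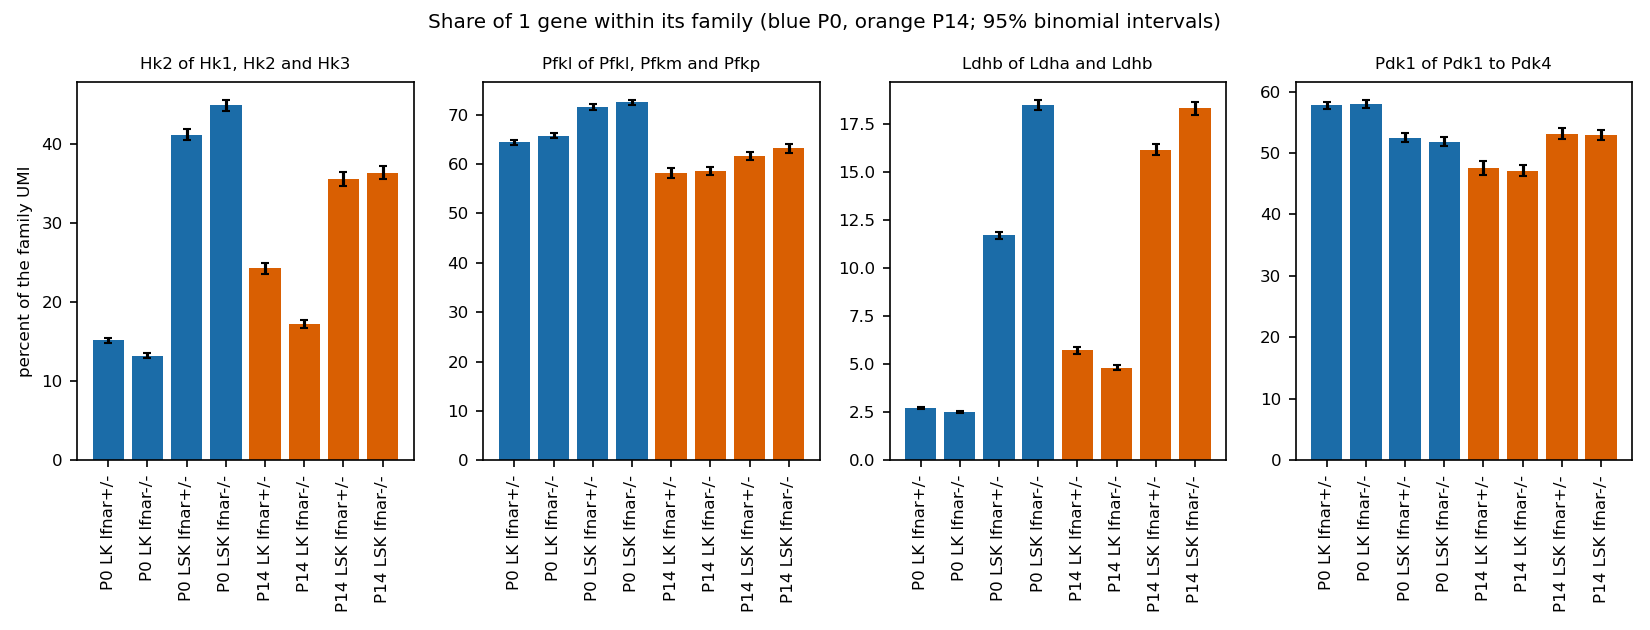
Share of UMI (y axes, percent, from 0) of Hk2, Pfkl, Ldhb and Pdk1 within their families in the 8 libraries (x axis), with exact 95% binomial intervals. Hk2 and Ldhb shares are higher in the 4 LSK libraries, the Pfkl share is lower in the 4 P14 libraries, and the Pdk1 share is lowest in P14 LK at 47.6% and 47.1%.

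Between genotypes none of the 10 genes was 1.5-fold higher in Ifnar-/- in all 4 pairs, against 0% of 12716 genes tested, and none was 1.5-fold lower, against 0.409%. The genotypes were wholly separate for none of the 10, against 0.0708% of genes with Ifnar-/- above and 0.354% with it below. Pfkl, Aldoa and Pgk1 were higher in Ifnar-/- in all 4 pairs, as were 8.21% of genes, and none of the 10 was lower in all 4, against 5.39%. In newborn LK, then newborn LSK, then the same fractions at P14, Aldoa had log2 ratios of 0.28, 0.08, 0.06 and 0.08, and Pfkl had 0.12, 0.38, 0.03 (interval -0.01 to 0.08) and 0.10. Pgk1 had 0.25, 0.02, 0.01 (interval -0.02 to 0.03) and 0.08. The medians of the 10 genes were 0.16, 0.17, -0.02 and 0.07, against 0.15 for all genes in newborn LSK and -0.03, -0.03 and 0.01 in the other pairs. In newborn LSK, HSC-like cells were 1.84% of Ifnar+/- and 50.4% of Ifnar-/- cells. However, 92.6% of the Ifnar+/- cells and 45.8% of the Ifnar-/- cells sat in unnamed clusters. Of these, cluster 10 met the naming thresholds for HSC and held 54 Ifnar+/- and 1475 Ifnar-/- cells. The Procr and Mecom gate held 10.7% and 24.9% of the same libraries, so the share depends on how such cells are chosen. Inside the Procr and Mecom gate the median genotype ratio there was 0.12, against 0.06 for all genes.

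Ldha in newborn LSK was lower in Ifnar-/-, by -0.22, while in LK it was higher at both ages, by 0.16 and 0.18. Hk2 was lower in Ifnar-/- LK, by -0.29 at P0 and -0.53 at P14, and higher in Ifnar-/- LSK, by 0.52 and 0.14. The largest member difference in newborn LSK was that of Hk2, 1.43-fold, and the next that of Pfkl, 1.301-fold. Pdk1 had ratios of -0.04, 0.26, -0.04 (interval -0.10 to 0.01) and 0.06.

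At an equal depth of 7500 UMI a cell, the median newborn LK cell held 6 and 7 UMI of Ldha and the median P14 LK cell 3 and 4. In LSK it held 3 at P0 and 2 at P14 in both genotypes. The Pkm median was 4 UMI in newborn LSK, 3 in P14 LSK and 2 in the 4 LK libraries. The spread between cells exceeded counting noise most for Ldha, whose variance was 1.63 to 2.09 times its mean, and for Pkm in LK, at 1.75 to 2.16 times. Pdk1 was near the counting limit, at no more than 1.1 times a mean of 0.303 to 0.495 UMI. Barcodes of at most 100 UMI, which hold mainly free RNA, carried the 10 genes at 0.728 to 1.26 times their level in cells of the same library.

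Across the 8 libraries, Pdk1 was more like some members than others. Pearson's r of log2(CPM + 1) was 0.77 between Pdk1 and Pkm and 0.755 between Pdk1 and Pfkl, but -0.115 with Ldha and -0.20 with Hk1. Ldha and Hk1 went together (0.90), as did Aldoa and Gpi1 (0.91) and Pgk1 and Pfkl (0.91), while Hk1 and Hk2 ran opposite (-0.65). These describe 8 libraries that share ages, fractions and makeup, and no p is given. Among 8176 genes with a mean of at least 10 CPM, the profiles most like that of Pdk1 were Hpcal1 (0.9645), Cd99l2 (0.9603), Glipr2 (0.9579), Man1a2 (0.9537) and Pdss2 (0.9442). Those most like the mean of the 10 genes were Abhd17c (0.9942), Tmem60 (0.9933), Maoa (0.9879), Rnf26 (0.9842) and Haus8 (0.9833).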

How the data were processed

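The authors deposited raw UMI counts per feature and barcode, unnormalized and without a cell filter, from 10x 3′ v3.1 libraries, for 32285 genes and 10 antibody tags (tags not used here). The file headers name Cell Ranger 4 and the submitters' processing notes name Cell Ranger 6.0.1 and mm10. The annotation release and the treatment of reads shared with pseudogenes are not given in the sources used here; Aldoa, Pgk1, Pkm, Ldha and Eno1 have close copies, so their counts are uncertain. The 10 members matched 11 gene rows, since Aldoa has a second row with 62 UMI, and rows were summed by symbol. No sequences are shown.

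Counts were summed over the kept cells of a library and divided by gene UMI (CPM). Libraries shared at most 10 cell barcodes a pair. Log2 ratios added 0.5 counts. Genes under 50 UMI in both libraries of any pair were left out. "Called" means at least 1.5-fold in the same direction in all 4 pairs. With 1 library a group no test was run; intervals are 95% exact Poisson or binomial and cover counting error only. The procedure was tested on simulated data, but no result of that is given here and no claim rests on it. The members and gene lists were chosen with earlier results of these data known. All 10 members are named. From each list the 3 genes whose smallest log2 ratio was largest among those going one way in all 4 pairs could be named, with Hif1a, Epas1, Arnt, Vhl, Ldhb, Pdk2, Pdk3, Pdk4, Hk3, Pfkm, Slc2a1 and Ndufa4l2. Aldoc, Ddit4 and Myc were named after their values were seen.

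Cells were clustered with scanpy 1.11.5 (2000 variable genes, 30 components, 15 neighbours, Leiden resolution 1). Naming of a cluster asked for at least 1 marker of a class among its 10 leading genes. It also asked for a marker score of at least 0.8 and 3 markers at 5 CPM. These thresholds were set after the clusters were seen, and 11 of 27 stayed unnamed. Cluster 10 stayed unnamed although it met them for HSC (score 1.06, 1 leading marker, 10 markers at 5 CPM). It held 1475 cells of newborn LSK Ifnar-/-. Names are rebuilt, not the authors'. Doublets were kept, with removal as an alternative. TMM used edgeR 4.0.16. Alternatives were cell filters, scaling, weighting, added CPM, free RNA removal and thresholds, and, added after seeing the data, subsets of cells.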

Additional observations from a re-analysis of the deposited data

Results flagged for a closer look

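In whole libraries Hk2 moved in opposite directions in the fractions in 2 comparisons. For P14 over P0 its mean log2 ratio was 0.19 in LK, where both genotypes were above 0, and -0.53 in LSK, where both were below 0, a difference of 0.71. For Ifnar-/- over Ifnar+/- it was -0.41 in LK and 0.33 in LSK, again with both ages on 1 side, a difference of -0.74. Neither difference was tested, since each fraction has 1 library per group. All 8 libraries enter both comparisons, so the 2 differences are not independent. In whole libraries P14 LK Ifnar+/- was the highest LK library, at 35.2 CPM, and P0 LSK Ifnar-/- the highest of all, at 59.5.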

How the results depend on the processing

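With 1 library a group, differences between mice and between conditions cannot be told apart, and naming of cells was rebuilt. The labels give no replicate numbers, so libraries could not be paired by animal. The 4 pairs compared are matched by label. An additive fit of age, fraction and genotype over the 8 libraries was not run. For P14 over P0, the count of members at least 1.5-fold lower in all 4 pairs, 1, is set beside the share of all genes so called. It became 2 under TMM scaling (3.35%), median-of-ratios scaling (3.48%) and equal weight of cell classes (1.51%), and 2 without the LK Ifnar+/- pair (3.11%) or the LSK Ifnar-/- pair (2.77%). It became 0 at 2-fold (1.19%) and 3 at the looser fold threshold (5.11%), and 0 within Procr and Mecom cells (1.21%) and within cells with male transcripts (1.47%). In cells without G2M UMI it stayed at 1 (1.18%), with Pfkl in place of Aldoa. The median over members, -0.378, was -0.394 at 5% mitochondrial UMI, -0.484 under TMM, -0.496 under median-of-ratios, -0.360 with cells and -0.538 with classes weighted equally. It was -0.503 in cells without G2M UMI, -0.304 in male and -0.400 in female cells. Cells with male transcripts were 21.8% and 23.3% of newborn LK and 55.1% and 30.2% of P14 LK. In LSK they were 32.8% and 28.8% at P0 and 56.4% and 34.4% at P14. The sexes were thus mixed unequally across ages and genotypes, and the part of sex was not tested. TMM and median-of-ratios scaling moved the median of all genes for age by -0.106 and -0.118.

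For LSK over LK, the count at least 1.5-fold lower, 2, became 1 with at least 15000 UMI (4.35%), doublets removed (4.34%), cells weighted equally (4%), 5 CPM added (2.21%), cells with at least 3 G2M UMI (4.75%) or male transcripts (3.81%). In each of these Hk1 remained. It became 0 with classes weighted equally (0.48%), at 2-fold (2.68%), in cells without G2M UMI (1.24%) and in Procr and Mecom cells (0%). The count at least 1.5-fold higher, 1, became 0 under TMM (14.7%) and median-of-ratios scaling (13.9%), with cells (16.4%) or classes (1.23%) weighted equally, at 2-fold (10.4%), in cells without G2M UMI (4.51%) and in Procr and Mecom cells (0.00987%). Where few genes pass, a lost call says nothing about the members. The median, -0.00917, was -0.277 under TMM, -0.327 under median-of-ratios, -0.0764 with cells and 0.0121 with classes weighted equally. It was -0.0600 in cells without G2M UMI, 0.0198 in those with at least 3, 0.0306 in Procr and Mecom cells and 0.00466 in male cells. For genotype the median, 0.0771, was 0.101 with cells weighted equally, 0.128 without G2M UMI and 0.0349 in male cells. The cause was not tested. Of the single-gene values under the 11 other settings of filters, scaling and weighting, 210 moved by less than their counting interval and 120 by more. Pfkp and Pdk1 took the opposite sign between genotypes with classes weighted equally.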

Other observations

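For LSK over LK, all 7 pentose phosphate genes tested were below 0 in all 4 pairs, with a median log2 ratio of -0.58, against 22.4% of all genes below 0 in all 4. Rpia, which makes ribose 5-phosphate, was at 49.5 to 58.8 CPM in LSK and at 102 to 113 in LK. Of 70 respiratory chain and ATP synthase genes, 60 were below 0 in all 4 pairs and none above, with a median of -0.30; Uqcrq and Atp5g1 were at least 1.5-fold lower in all 4, a share under the 4.43% of all genes. Of 16 citric acid cycle genes, 10 were below 0 in all 4 pairs, with a median of -0.22. The median of all genes was 0.28.

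Of 13 control and transport genes, Slc2a1, Slc16a7 and Pfkfb4 were at least 1.5-fold higher in LSK in all 4 pairs, a share near the 20.5% of all genes, and Slc16a1 and Myc were lower, against 4.43%. Slc16a1, a carrier of lactate and pyruvate, was at 22.3 to 29.3 CPM in LSK and 44.3 to 55.3 in LK. Of 11 pyruvate dehydrogenase switch genes 3 were above and 5 below 0 in all 4 pairs, against 58.3% and 22.4% of all genes, and Pdk2 alone was 1.5-fold higher in LSK in all 4 pairs, at 6.89 to 10.4 CPM against 3.40 to 4.91, while 20.5% of all genes were. Early response genes, which dissociation can raise, had a median LSK over LK ratio of 0.85, but went no single way with age: the pair medians for P14 over P0 were 1.12 and 0.37 in LK and 0.01 and -0.68 in LSK. Fosb was at 18.0 to 22.6 CPM at P14 and 0.8 to 3.25 at P0, while Hspa1b was at 0.119 to 0.393 CPM at P14 and 0.344 to 0.911 at P0.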
